A study of Homo sapiens with 8 samples.

Results

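The 9 genes described here are the TSC22 family (TSC22D1, TSC22D2, TSC22D3 and TSC22D4), the glucocorticoid receptor NR3C1, its co-chaperones FKBP5 and FKBP4, and the receptor-responsive genes DEPP1 and PER1. They were chosen by name, with their ratios in these data already known, above all that of TSC22D3, so those ratios are given as a description and were not tested. All 9 were among the 8801 genes listed, and all had a ratio with both siRNAs. The cells were HEK293T, a human embryonic kidney line, either wild type (WT) or Pcif1-KO, which lacks PCIF1, the methyltransferase that makes m6Am on the first transcribed adenosine of an mRNA. Each genotype received 5 pmol of a scrambled siRNA (siScram) or of an siRNA against the cleavage and termination factor PCF11 (siPCF11). Nuclei were enriched 48 h later and their RNA was read from the mRNA 3′ end. The assay is named anabolicSLAM, but the labels describe no labelling step, so whether the ratios count newly made RNA alone could not be checked. The protocol also lists an siRNA against Dis3, an RNA-degrading exosome subunit, without saying which libraries received it. Each of these 4 groups had 1 library, and the number of Pcif1-KO clones is not given in the labels. The 4 rescue libraries of the series (PCIF1-WT, PCIF1-CD and EGFP in Pcif1-KO cells) were not analysed here. Loss of PCIF1 cannot be told apart from any other difference between the WT and Pcif1-KO cells used.

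The glucocorticoid receptor waits in the cytoplasm in a complex with the chaperone HSP90 and an FKBP co-chaperone, and enters the nucleus when a hormone such as cortisol binds it. There it binds DNA and switches on genes that include TSC22D3, FKBP5 and PER1. FKBP5 lowers the receptor's affinity for hormone, which makes a negative feedback loop. TSC22 proteins share the TSC box followed by a leucine zipper, through which they pair with each other. TSC22D3, also called GILZ, restrains the inflammatory factors NF-kB and AP-1, and it is also a target of FOXO factors, which act when insulin signalling is low.

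Every value below is a log2 ratio of WT over Pcif1-KO from the authors' deposited tables, or is computed from these ratios, so that a positive value is higher in WT. The tables used here hold no counts or levels, so the depth behind a ratio is unknown, no error can be given within 1 siRNA, and lineage markers could be looked for only by name. Of 11 marker genes looked for as signs of other cell lineages, none was listed. PCIF1 was not analysed here. PCF11 stood at -0.44 with siScram and -0.45 with siPCF11 as listed in the authors' deposited tables, which does not check its knockdown, since both libraries of a ratio received the same siRNA. As the samples are bulk RNA, fewer cells with a transcript and less transcript per cell cannot be told apart.

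Of the 9 genes, TSC22D3 was much higher in WT cells with both siRNAs and DEPP1 was lower in WT cells with both, far more so with siPCF11. TSC22D1 and PER1 were modestly higher in WT cells with both siRNAs. FKBP4 and TSC22D4 were higher in WT cells mainly with siPCF11, and NR3C1 was close to 0 with siScram and lower in WT cells with siPCF11. FKBP5 and TSC22D2 lay a little below 0 with both siRNAs. With siScram 6 of the 9 ratios were above 0, against 48.9% of all 7893 genes listed, and with siPCF11 5 of 9 were, against 48.9% of all 8499. The median of the 9 was 0.024 with siScram and 0.27 with siPCF11, beside -0.0096 and -0.01 for all genes. As the ratios were known when the genes were chosen, nothing is read from these shares.

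**Figure D1:**
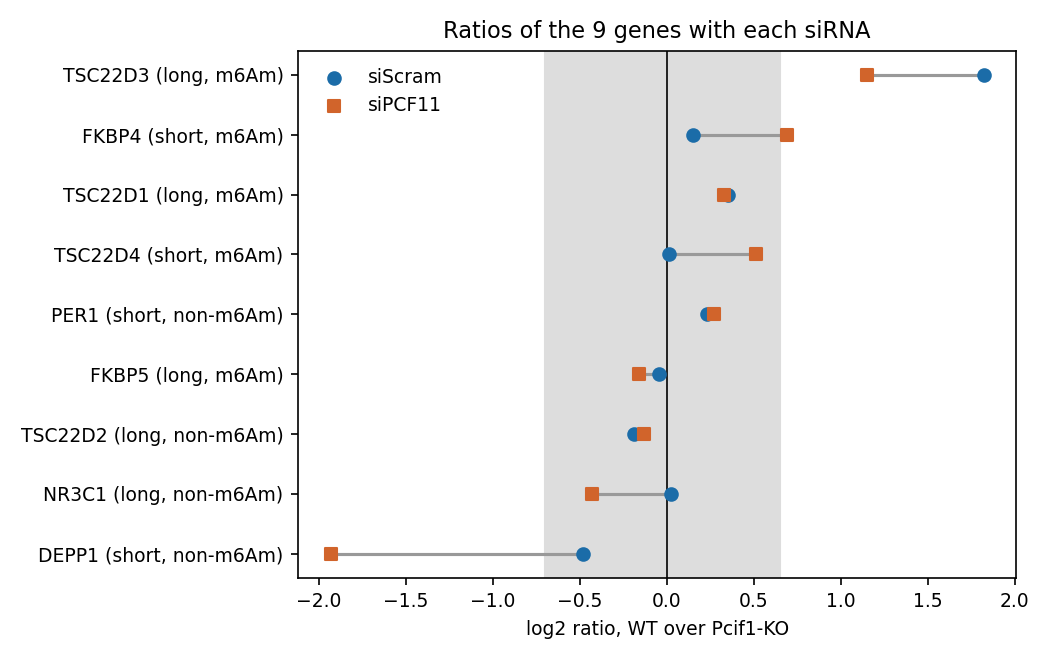
Ratio of WT over Pcif1-KO, as log2, for each gene with siScram (circles) and siPCF11 (squares), ordered by the mean of both, with the authors' length and m6Am class in brackets. Each point rests on 1 pair of libraries, and the grey band holds the middle 95% of all genes with siScram, from -0.70 to 0.65. TSC22D3 lies to its right with both siRNAs, at 1.82 and 1.15. With siPCF11 the middle 95% runs from -0.75 to 0.78, so FKBP4 at 0.69 with siPCF11 is inside it though right of the band.

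A log2 ratio above 1, which is more than a doubling, was reached by 1 of the 9 genes with each siRNA, TSC22D3, against 0.393% of all genes with siScram and 0.835% with siPCF11. A ratio below -1 was found for none of the 9 with siScram (0.519% of all genes) and for 1, DEPP1, with siPCF11 (0.659% of all genes). At the lower line of 0.5, TSC22D3 alone was above it with siScram, where 6.11% of all genes were. With siPCF11 TSC22D3, FKBP4 and TSC22D4 were above 0.5, where 8.81% of all genes were. None of the 9 was below -0.5 with siScram (6.98% of all genes), and DEPP1 alone was with siPCF11 (8.7% of all genes).

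The sequences that bear on these genes are their start sites, since m6Am is placed on a first transcribed adenosine, and TSC22D3 and DEPP1 are also known as FOXO targets, so the FOXO binding motif GTAAACA was looked for there. RefSeq windows on GRCh38.p14, from 250 bases before to 50 bases after each listed start, were used for 7 of the 9 genes, which had 21 windows, some of them overlapping (TSC22D2 and FKBP4 were not included). The motif, read on both strands as GTAAACA or TGTTTAC, was found in 3 of the 21 windows, in 1 of 4 of TSC22D3, 1 of 7 of NR3C1 and the 1 of DEPP1. It was found in 3.42% of all 35116 RefSeq windows and in 2.6% of the 10665 windows of the genes listed here. The stretches below run 5′ to 3′ on the minus strand from 200 bases before the start to 10 bases after it, and the capitals mark the motif and the start base.
TSC22D3, chrX:107717052-107717262: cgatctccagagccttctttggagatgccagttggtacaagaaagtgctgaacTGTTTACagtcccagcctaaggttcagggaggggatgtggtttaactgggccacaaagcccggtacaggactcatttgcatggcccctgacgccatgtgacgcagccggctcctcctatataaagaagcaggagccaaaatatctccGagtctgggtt
NR3C1, chr5:143403273-143403483: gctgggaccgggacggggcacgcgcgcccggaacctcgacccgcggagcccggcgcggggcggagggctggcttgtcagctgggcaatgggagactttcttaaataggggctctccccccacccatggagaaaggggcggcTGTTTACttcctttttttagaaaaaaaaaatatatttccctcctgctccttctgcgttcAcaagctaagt
DEPP1, chr10:44978799-44979009: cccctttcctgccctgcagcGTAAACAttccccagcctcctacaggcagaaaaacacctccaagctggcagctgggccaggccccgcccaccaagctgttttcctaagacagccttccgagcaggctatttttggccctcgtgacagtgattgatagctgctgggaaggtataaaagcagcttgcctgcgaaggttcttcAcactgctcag
In these stretches the first base of the motif lies 147 bases before the start of TSC22D3, 59 before that of NR3C1 and 180 before that of DEPP1. Nothing is read from the motif about the ratios of these genes. The E-box CACGTG, bound by the clock factors CLOCK and BMAL1, was found in the PER1 window, where its first base lies 173 bases before the start, and in 1 window each of TSC22D1 and FKBP5, against 7.26% of all windows and 10.1% of those of listed genes. The half-site of the receptor's own element, AGAACA or TGTTCT, was found in 1 window each of TSC22D1 and FKBP5, against 14.8% of all windows and 8.98% of those of listed genes. The CRE motif TGACGTCA was in none of the 21 windows and in 1.85% of all windows and 3.23% of those of listed genes. No hits of different motifs overlapped in the windows of these genes, and a match is a run of letters and not a binding site.

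The authors' m6Am class could be set beside the annotated start base. Among listed genes with 1 RefSeq start, that base was A in 50.6% of 2640 m6Am genes and in 38.7% of 2563 non-m6Am genes. TSC22D3 is in the m6Am class, but none of its 4 RefSeq starts is an A. The stretches of 21 bases around them, with the start base in capitals, are shown for that reason, with the start of TSC22D4, where class and base also differ, and that of PER1, where they do not.
TSC22D3, start at 107716508: tctgggatccGtcatcgaagc
TSC22D3, start at 107717062: aaatatctccGagtctgggtt
TSC22D3, start at 107775787: cccttcctgcCtccacaggtc
TSC22D3, start at 107775988: tttacatgctGtcatatccca
TSC22D4, start at 100479214: tggtgtggggGttgtcaacag
PER1, start at 8152404: cccgcccggtGgagcttccac
TSC22D4, also in the m6Am class, has 1 RefSeq start, a G. The DEPP1 start shown above is an A, although DEPP1 is in the non-m6Am class, and the PER1 start is a G in a non-m6Am gene. Both FKBP5 starts are A and 3 of 5 TSC22D1 starts are A, and both genes are in the m6Am class. NR3C1 is in the non-m6Am class with an A at 5 of its 7 starts. In the stretches of 21 bases shown, an A lies within 2 bases of the TSC22D3 start at 107717062 and of the PER1 start. RefSeq starts are annotated from other sources, and which start these cells used was not measured in the tables used here.

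TSC22D3 (ENSG00000157514.16, hg38 chromosome X, 107713221 to 107775988, a span of 62.8 kb) is a long gene of the m6Am class. Its log2 ratio as read from the authors' deposited tables was 1.82 with siScram and 1.15 with siPCF11. These equal 3.53-fold and 2.21-fold more in WT than in Pcif1-KO cells. With siScram 2 of 7893 genes had a higher ratio, and none of the 2013 long m6Am genes did. With siPCF11 34 of 8499 genes were higher, among them 6 of the 2134 long m6Am genes. The siPCF11 ratio was lower by 0.67 on the log2 scale, and of 7591 genes with both ratios 329 had a lower difference. TSC22D3 was 1 of 14 genes above 1 with both siRNAs.

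The genes around TSC22D3 had much lower ratios. Of 21 other listed genes within 5 Mb none was as high with siScram, and their ratios ran from -1.17 to 0.16 with a median of -0.28. With siPCF11 the 23 other genes ran from -2.15 to 0.069 with a median of -0.39. Its nearest neighbour with both ratios, PRPS1, a nucleotide synthesis enzyme whose gene is centred 105 kb away, stood at -0.63 and -1.24 as given in the authors' deposited tables. The next, MID2, a ubiquitin ligase gene 134 kb away, stood at -0.41 and 0.051 there. On the whole of chromosome X none of 265 other genes with siScram and none of 289 with siPCF11 was higher than TSC22D3. Set against the median of its neighbours within 5 Mb, TSC22D3 was at 2.10 with siScram and 1.54 with siPCF11.

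**Figure D2:**
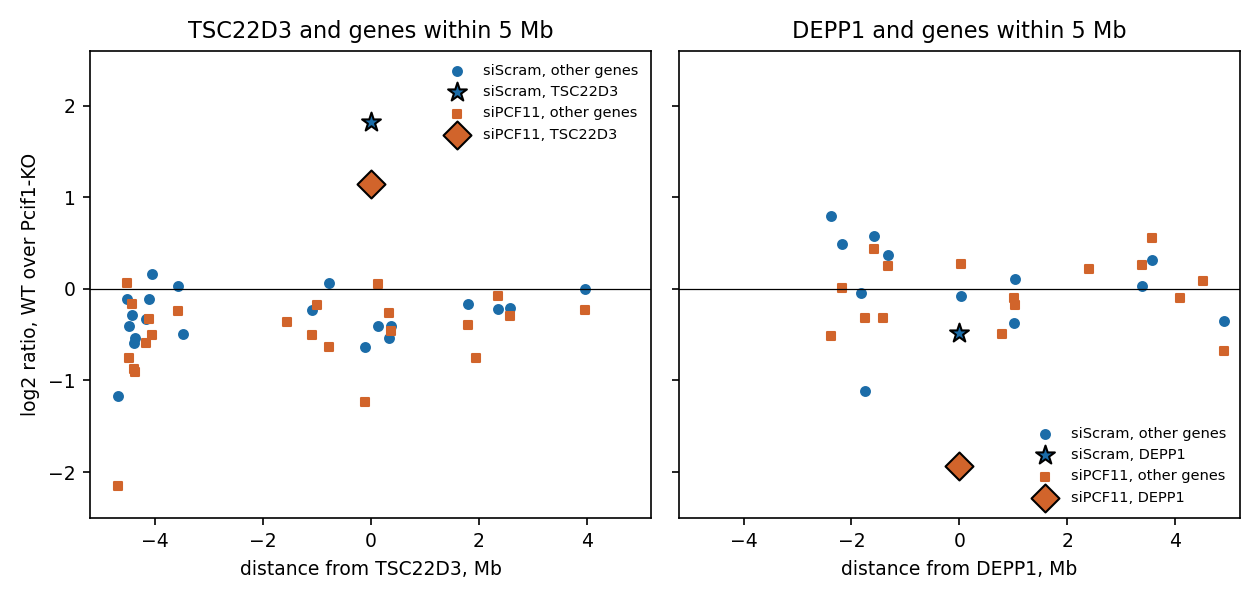
Ratio of WT over Pcif1-KO, as log2, for TSC22D3 (left) and DEPP1 (right) and for every other listed gene within 5 Mb, by distance between gene centres in Mb, with siScram (blue) and siPCF11 (orange). TSC22D3 lies above all its neighbours, whose highest ratios were 0.16 and 0.069, and DEPP1 with siPCF11 lies below all of its 16 neighbours.

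The rest of the TSC22 family lay much nearer to 0. TSC22D1 (ENSG00000102804.14, hg38 chromosome 13, 44432143 to 44577344), first found as a gene induced by TGF-beta, had ratios of 0.35 and 0.33 with siScram and siPCF11 as listed in the authors' deposited tables. They correspond to 1.27-fold and 1.25-fold more in WT cells. The ratios of TSC22D1 differed by -0.019 between the siRNAs, and 1068 of 7893 and 1559 of 8499 genes were higher. The 17 other genes within 5 Mb had a siScram median of 0.10, and relative to them TSC22D1 was at 0.25. TSC22D2 (ENSG00000196428.12, hg38 chromosome 3, 150408298 to 150466422), the least studied member of the family, is a long non-m6Am gene. Its ratios were -0.19 and -0.13 as read from the authors' deposited tables, inside the middle 50% of all genes with both siRNAs (-0.23 to 0.21 and -0.25 to 0.24). TSC22D2 was the only member of the family below 0, and it is the only one in the non-m6Am class. Of all listed genes, 49.6% of the m6Am and 48.0% of the non-m6Am class were above 0 with siScram. With siPCF11 the shares were 52.8% and 45.1%. A link between class and sign was not tested.

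TSC22D4 (ENSG00000166925.8, hg38 chromosome 7, 100466519 to 100479214), known in mouse for its part in liver lipid metabolism, is the only short gene of the family, with a span of 12.7 kb. Its ratio as given in the authors' deposited tables was 0.013 with siScram and 0.51 with siPCF11, a difference of 0.49. With siPCF11 726 of 8499 genes were higher, and 5 of 59 other genes within 5 Mb were. Relative to those neighbours TSC22D4 was at 0.13 with siScram and 0.57 with siPCF11. Within the family the siScram ratios thus ran from -0.19 to 1.82 and the siPCF11 ratios from -0.13 to 1.15, with TSC22D3 highest and TSC22D2 lowest with both.

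NR3C1 (ENSG00000113580.14, hg38 chromosome 5, 143277931 to 143435512), the receptor itself, is a long non-m6Am gene with a span of 158 kb. Its ratio was 0.024 with siScram and -0.43 with siPCF11 as listed in the authors' deposited tables, which with siPCF11 is 1.34-fold more in Pcif1-KO cells. NR3C1 is the only 1 of the 9 genes whose ratios with the 2 siRNAs had opposite signs, beside 2906 of all 7591 genes. With siPCF11 2 of 33 other genes within 5 Mb were lower, and their median was -0.0042. Of 8499 genes 1042 were lower with siPCF11, so the ratio lies well within the range of all genes.

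The co-chaperones of the receptor differed from each other. FKBP5 (ENSG00000096060.14, hg38 chromosome 6, 35573590 to 35728583), the feedback inhibitor and itself a receptor target, had ratios of -0.047 and -0.16 as read from the authors' deposited tables. Both lay inside the middle 50% of all genes, beside ratios of 1.82 and 1.15 for the receptor target TSC22D3. FKBP4 (ENSG00000004478.7, hg38 chromosome 12, 2794970 to 2805423), which helps carry the receptor to the nucleus, had ratios of 0.15 and 0.69 as given in the authors' deposited tables. With siPCF11 FKBP4 was 1.61-fold higher in WT cells, and 306 of 8499 genes and 2 of 41 other genes within 5 Mb had a higher ratio. Its difference between the siRNAs was 0.54.

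DEPP1 (ENSG00000165507.8, hg38 chromosome 10, 44976128 to 44978809), a gene induced by steroid hormones and by FOXO factors that takes part in autophagy, is the shortest of the 9 at 2.68 kb and is in the non-m6Am class. Its ratio was -0.48 with siScram and -1.93 with siPCF11 as listed in the authors' deposited tables, or 1.39-fold and 3.82-fold more in Pcif1-KO cells. With siScram 622 of 7893 genes were lower, and with siPCF11 5 of 8499 were, of which 3 were other short non-m6Am genes. The difference between the siRNAs was -1.46, and 3 of 7591 genes had a lower one. Of the other genes within 5 Mb, 1 of 12 was below DEPP1 with siScram and none of 16 with siPCF11, where they ran from -0.68 to 0.55. Its nearest neighbour, the zinc finger gene ZNF22 at 25.7 kb, stood at -0.083 and 0.27 as read from the authors' deposited tables. DEPP1 and TSC22D3, both receptor-responsive and both FOXO targets, thus lay on opposite sides of 0 with both siRNAs.

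PER1 (ENSG00000179094.15, hg38 chromosome 17, 8140472 to 8152404), a repressor of the circadian clock that glucocorticoids induce, is a short non-m6Am gene. It had ratios of 0.23 and 0.27 as given in the authors' deposited tables, a difference of 0.04. These are 1.17-fold and 1.2-fold more in WT cells, and 1817 of 7893 and 1918 of 8499 genes were higher. Its nearest neighbour VAMP2, a vesicle fusion gene centred 14.6 kb away, stood at -0.29 and -0.53 as listed in the authors' deposited tables. Of the other genes within 5 Mb, 16 of 76 with siScram and 18 of 79 with siPCF11 had a higher ratio than PER1. PER1 was thus above VAMP2 with both siRNAs but well within the range of its other neighbours and of all genes.

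Ordered by the mean of both ratios, TSC22D3 came first at 1.48, followed by FKBP4 at 0.42, TSC22D1 at 0.34, TSC22D4 at 0.26 and PER1 at 0.25. FKBP5 at -0.11, TSC22D2 at -0.16 and NR3C1 at -0.20 came next, and DEPP1 was last at -1.21. The only spread available is that between the ratios with siScram and siPCF11, which for all 7591 genes with both had a pooled SD of 0.282 and includes any real effect of the siRNA. The ranges over the 2 siRNAs of TSC22D3 and FKBP4 did not overlap, with a gap of 0.46 between them. Nor did those of PER1 and FKBP5 (0.28) or of NR3C1 and DEPP1 (0.05). The ranges of every other pair of neighbours in this order overlapped. Each range spans only 2 single-library ratios with different siRNAs, so neither a gap nor an overlap measures error or sets the order. The gaps of 0.28 and 0.05 did not exceed the pooled SD of 0.282.

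**Figure D3:**
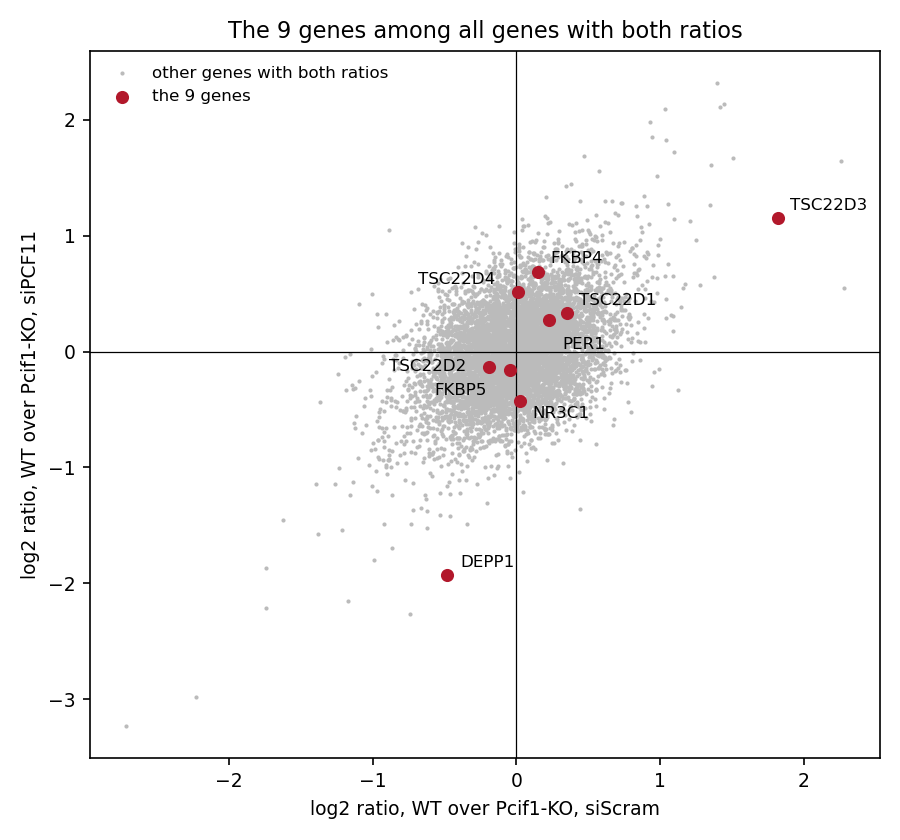
Log2 ratio of WT over Pcif1-KO with siPCF11 (vertical) against siScram (horizontal) for all genes with both ratios (grey) and for the 9 genes (red), each point resting on 1 pair of libraries per axis. TSC22D3 lies at 1.82 and 1.15 and DEPP1 at -0.48 and -1.93, both outside the main cloud, and the other 7 lie within it.

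By class, 4 of the 5 m6Am genes (TSC22D1, TSC22D3, TSC22D4 and FKBP4, but not FKBP5) were above 0 with each siRNA, against 49.6% of all m6Am genes with siScram and 52.8% with siPCF11. Of the 4 non-m6Am genes, NR3C1 and PER1 were above 0 with siScram, against 48.0% of all non-m6Am genes, and PER1 alone was with siPCF11, against 45.1%. The medians of the m6Am genes were 0.15 and 0.51, and those of the non-m6Am genes -0.08 and -0.28. With so few genes, chosen with their ratios known, these shares describe the 9 genes only. The long genes among the 9 had spans from 58.1 kb (TSC22D2) to 158 kb (NR3C1), and their ratios ran from the highest with siScram, TSC22D3, to -0.43 for NR3C1 with siPCF11. The short genes had spans from 2.68 kb (DEPP1) to 12.7 kb (TSC22D4), and among them lay the lowest ratio of the 9.

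Between the siRNAs the ratio of 2 of the 9 genes, TSC22D3 and DEPP1, was lower by more than 0.5 with siPCF11, against 9.91% of all genes with both ratios. That of FKBP4 was higher by more than 0.5, against 10.9% of all genes. TSC22D4 and NR3C1 came close to these lines at 0.49 and -0.45. For TSC22D1, TSC22D2, PER1 and FKBP5 the differences lay between -0.12 and 0.056. The siScram and siPCF11 ratios come from separate pairs of libraries without replicates, so these differences were not tested.

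Genes with ratios most like those of each of the 9 were found by the distance in the plane of both ratios, over 2 values per gene. TSC22D3 and DEPP1 had no gene within a distance of 0.1. Nearest to TSC22D3 were BCL6B, a transcriptional repressor gene at 1.35 and 1.26, FOXRED2 at 1.25 and 0.96, and the ribonuclease P subunit gene RPP25 at 1.51 and 1.67 as read from the authors' deposited tables. Nearest to DEPP1 were the secreted protease gene ADAMTS1 at -0.74 and -2.26, HOXB6 at -0.62 and -1.52 and the caspase gene CASP10 at -0.86 and -1.69 as given in the authors' deposited tables. The other 7 genes each had between 46 and 311 genes within 0.1, so their nearest genes are not set apart. These were TERF2IP, SLX9 and FAT1 for TSC22D1, DNAJB1, MBOAT7 and FZD3 for TSC22D2, and MEPCE, ARL10 and FAM50A for TSC22D4. They were MAIP1, NCAPH and CCDC34 for NR3C1, NCBP1, BCAT1 and LARP1B for FKBP5, ZNF593, BYSL and KLHDC10 for FKBP4, and RBM39, ZDHHC6 and ZNF598 for PER1. MEPCE, a capping enzyme of the 7SK RNA, is also a chromosomal neighbour of TSC22D4, with its centre 41.4 kb away.

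The wider target genes of the receptor lay on both sides of 0. Of 40 target genes looked for, 26 were listed, 10 above and 16 below 0 with siScram, with a median of -0.08. With siPCF11 9 were above and 17 below 0, with a median of -0.16, beside 48.9% of all genes above 0 with either siRNA. Over both siRNAs 12 were below 0 in both, 5 were above 0 in both and 9 differed in sign, beside 2392, 2293 and 2906 of all 7591 genes with both ratios. TSC22D3 was the highest with both siRNAs and the only target above 1. The metallothionein gene MT1X was lowest with siScram, at -0.96 and -0.77 as listed in the authors' deposited tables, and reads of such near-identical gene copies may have been shared between them. NFKBIA, the inhibitor of NF-kB, was at -0.83 and -0.43, and TFCP2L1, a transcription factor, at -0.63 and -0.61 as read from the authors' deposited tables. DUSP1, a phosphatase that ends MAP kinase signals, was at -0.16 and -0.68, and the kinase SGK1 at -0.07 and -0.67 as given in the authors' deposited tables. The G protein regulator RGS2 was at 0.21 and -0.93 and the EGFR inhibitor ERRFI1 at -0.06 and 0.60 as listed in the authors' deposited tables. Set against the genes within 5 Mb, ERRFI1 was at -0.36 and 0.16. Among the targets above 0 with both siRNAs were the stress protein gene SESN1, at 0.39 and 0.28, and the transcription factor gene CEBPB, at 0.20 and 0.60, in the values of the authors' deposited tables. CEBPB was at -0.08 and 0.24 against the genes within 5 Mb.

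The receptor's chaperones and co-regulators were spread evenly about 0. Of 39 such genes 33 were listed with siScram, 16 above and 17 below 0 (median -0.05), and 34 with siPCF11, 18 above and 16 below 0 (median 0.06). None was beyond 1 in either direction, and 48.9% of all genes were above 0 with either siRNA. PPID, an immunophilin of the receptor complex, was highest with siScram at 0.60, and 0.31 with siPCF11, as read from the authors' deposited tables. The coactivator NCOA1 was lowest with siScram at -0.46, and stood at -0.18 with siPCF11, as given in the authors' deposited tables. PTGES3, the p23 co-chaperone that stabilises the bound receptor, was at 0.41 and 0.67, while HSP90AA1 was at 0.16 and -0.18 and HSP90AB1 at 0.09 and 0.26 as listed in the authors' deposited tables. IPO13, an importin, was at 0.19 and 0.90 and MED1, a Mediator subunit bound by nuclear receptors, at -0.40 and -0.88 as read from the authors' deposited tables. HSPA8, the constitutive HSC70 chaperone, was at -0.21 and -0.82 and the phosphatase PPP5C at -0.31 and -0.73 there. Set against the genes within 5 Mb, the siScram ratios of HSPA8 and HSP90AB1 had the opposite sign, at 0.11 and -0.04. On that scale MED1 was at -0.17 with siScram and HSP90AA1 at -0.30 with siPCF11.

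Among FKBP immunophilins, 4 of 10 listed genes were above 0 with siScram (median -0.05) and 6 of 11 with siPCF11 (median 0.07). The share of all genes above 0 was 48.9% with either siRNA. FKBP1A, the FK506 target, was highest with siScram at 0.40, and 0.66 with siPCF11, as given in the authors' deposited tables. Relative to its neighbours within 5 Mb FKBP1A was at 0.05 and 0.31. FKBP2, of the endoplasmic reticulum, was lowest at -0.84 and -0.79 as listed in the authors' deposited tables, and at -0.52 and -0.62 relative to its neighbours. FKBP4 had the highest siPCF11 ratio of these genes. FKBP5 stood near the middle of the family with siScram.

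TSC22 proteins bind the pseudokinase NRBP1 in the WNK pathway, which senses cell volume and chloride. Of 16 genes of that pathway 7 were listed with siScram, 1 above and 6 below 0, with a median of -0.25. With siPCF11 6 of 8 were above 0, with a median of 0.13, beside 48.9% of all genes above 0 with either siRNA. Of the 7 with both ratios 4 differed in sign, beside 2906 of all 7591 genes. WNK1 was highest with siScram, at 0.13 and 0.21, and its substrate OXSR1 lowest, at -0.41 and -0.53, as read from the authors' deposited tables. NRBP1 itself was at -0.04 with siScram and 0.80 with siPCF11 as given in the authors' deposited tables. TSC22D4 was likewise near 0 with siScram (0.013) and higher with siPCF11 (0.51), whereas the ratios of TSC22D1 and TSC22D2 differed by -0.019 and 0.056 between the siRNAs. Of all 7591 genes with both ratios, 127 lay within a distance of 0.1 of TSC22D4 in the plane of both ratios. NRBP1, at 0.80 against 0.51 with siPCF11, was not among them. Of all genes with both ratios 11.2% had a higher difference than TSC22D4, and NRBP1 was named after its value was seen.

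FOXO factors and their targets, which include TSC22D3 and DEPP1, had 12 of 22 genes above 0 with siScram (median 0.05) and 10 of 24 with siPCF11 (median -0.09). With each siRNA 48.9% of all genes were above 0. The insulin receptor substrate IRS2, at 1.05 and 1.28 as listed in the authors' deposited tables, was the only other gene of the list above 1, and it was so with both siRNAs. Set against the genes within 5 Mb, IRS2 was below 1 with both, at 0.96 and 0.79. YPEL5 was lowest with siScram, at -0.94 and -0.43 as read from the authors' deposited tables. FOXO1 was at 0.42 and 0.09, FOXO3 at 0.04 and 0.12 and FOXO4 at 0.05 and 0.24 as given in the authors' deposited tables. FOXO3 with siScram was below 0, at -0.06, once set against the genes within 5 Mb, while the other ratios of these factors stayed above 0. The ratio was lower with siPCF11 than with siScram for 15 of 22 genes, beside 3737 of all 7591 genes. The median difference was -0.22, beside 0.0072 for all genes. The 15 include TSC22D3 and DEPP1, which were chosen with their ratios known. The count and median were not recomputed without them, so nothing is read from either. DEPP1 had the lowest difference of the list, -1.46. The mitophagy gene BNIP3, at 0.10 and -0.77 as listed in the authors' deposited tables, and the cell death gene BCL2L11, at 0.42 and -0.56, were above 0 with siScram and below it with siPCF11. The stress protein gene SESN2, at -0.28 and 0.35, and the insulin receptor gene INSR, at -0.24 and 0.30, went the other way in the values of the authors' deposited tables. Set against the genes within 5 Mb, SESN2 was at -0.49 and 0.06 and INSR at -0.11 and 0.24.

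Clock genes, to which PER1 belongs, were close to all genes, with 9 of 17 above 0 with siScram (median 0.04) and 8 of 15 with siPCF11 (median 0.04). PER2 was at 0.46 and 0.07 and CRY1, its partner in repression, at 0.53 and 0.29 as read from the authors' deposited tables. The related gene CRY2 went the other way, at -0.52 and -0.12. BHLHE41 was highest with siScram, at 0.55 and 0.04, and the related repressor BHLHE40 lowest, at -0.89 and -0.73, as given in the authors' deposited tables. Set against the genes within 5 Mb, PER2 was below 0 with siPCF11, at -0.14, and BHLHE41 was at 0.33 and 0.18. On that scale CRY2 was at -0.20 and 0.10. Among genes of the TGF-beta pathway and reported partners of TSC22D3, 5 of 13 were above 0 with siScram (median -0.14) and 3 of 13 with siPCF11 (median -0.12). Beside this list and the clock genes, 48.9% of all genes were above 0 with each siRNA. The NF-kB subunit RELA, which TSC22D3 binds, was at -0.52 and -0.37 and NFKB1 at -0.14 and -0.89 as listed in the authors' deposited tables. Relative to its neighbours on chromosome 11 RELA was at -0.19 and -0.20. NFKBIA was lowest with siScram, at -0.83 and -0.43, as read from the authors' deposited tables. The AP-1 gene FOS was above 0 with both siRNAs, at 0.09 and 0.28, and JUN was below 0 with both, at -0.25 and -0.52. Lists were described by counts and medians only, and no list was tested.

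**Figure D4:**
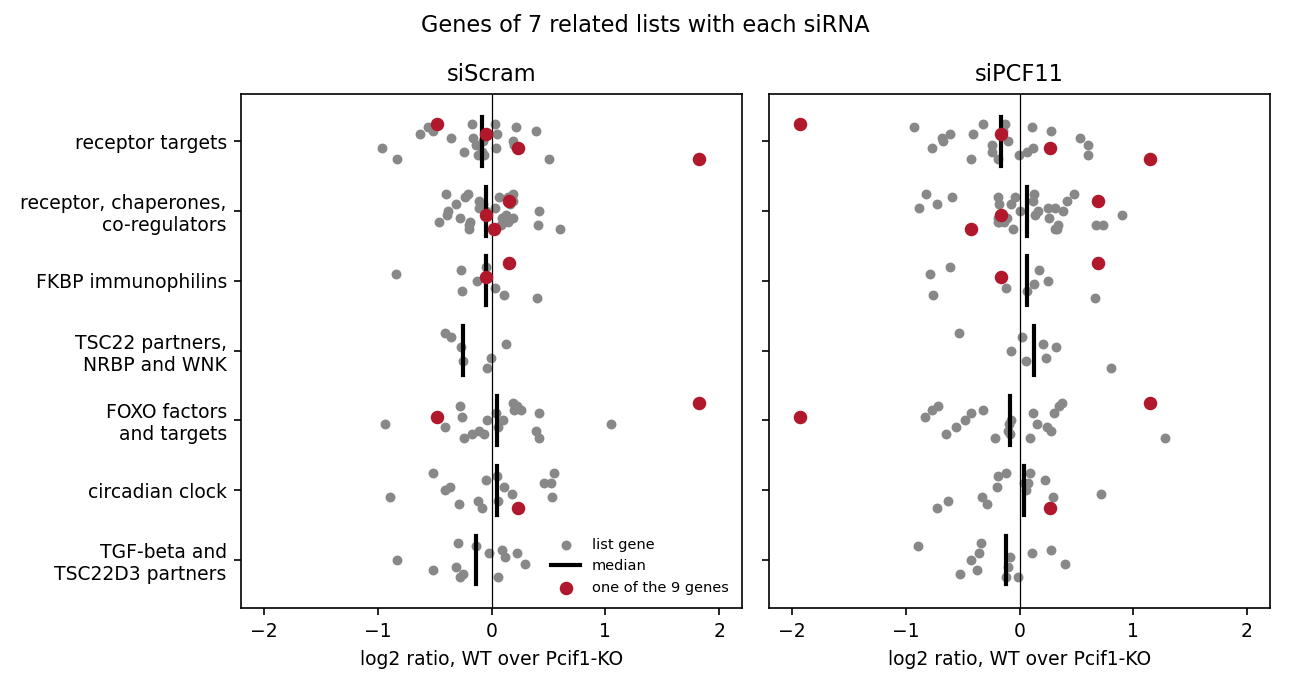
Ratio of WT over Pcif1-KO, as log2, for each listed gene (points) of 7 related lists with siScram (left) and siPCF11 (right), with the list median (black bar) and those of the 9 genes that belong to a list in red; vertical positions within a row are spread for legibility. TSC22D3 is the rightmost receptor target with both siRNAs, in the FOXO row IRS2 lies to its right with siPCF11 (1.28 against 1.15, or 0.79 against 1.54 when set against genes within 5 Mb), and DEPP1 is leftmost in both rows with siPCF11, while all 7 medians lie between -0.25 and 0.13.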

How the data were processed

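Nuclear RNA of HEK293T cells was sequenced from the mRNA 3′ end in 8 libraries of 7 groups, of which 4 libraries lie behind the values used. The values are log2 ratios that the authors deposited, in 1 table of long and 1 of short genes, of WT over Pcif1-KO, in 8 columns by m6Am class and siRNA, per the file headers. Per the submitters' processing notes, DESeq2 1.30.1, HTSeq 2.0.1, STAR 2.7.10a, cutadapt 3.7 and bcl2fastq 2.20 were used with the hg38 build, with no role stated. Not given in the sources used here are the scaling, shrinkage, strand setting, gene selection and the rules of the length and m6Am classes. A 3′ end value can also move with the cleavage site. The tables used hold no counts, so no filter on low values, no interval and no depth could be had.

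Python 3.11.15 with pandas 2.3.3 was used. Of 8801 IDs, taken without version, 8792 matched a symbol and 8725 a RefSeq span on GRCh38.p14. Ratios were ranked among all listed genes and set against the median of all genes, of the same class, of the chromosome, or of other genes within 5 Mb (of the chromosome where fewer than 15 lay there). The centring was tested on simulated data with a constant offset for each chromosome. That does not check how it handles shifts of a region within a chromosome. Members, lists, motifs and the rule for named genes were chosen with earlier results of these data known. The rule names the 9 genes, PCF11, the highest and lowest gene of each list with siScram and the 3 genes nearest to each of the 9; further genes of the lists were named after their values were seen. The highest gene of 1 list is not reported here. With 1 library per group and members chosen on these ratios, no test was made.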

Additional observations from a re-analysis of the deposited data

Results flagged for a closer look

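NR3C1 is given a closer look because its ratio was above 0 with siScram (0.024) and below 0 with siPCF11 (-0.43), a difference of -0.45. Of 7591 genes with both ratios 2906 had ratios of opposite sign and 931 had a lower difference. There is 1 pair of libraries per siRNA, and the difference was not tested.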

How the results depend on the processing

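All 18 ratios of the 9 genes kept their sign under each of the 4 centrings tried (all genes, class, chromosome and genes within 5 Mb), and the largest shift was 0.39. As there are no replicates, a shift was called a move where it exceeded 0.282, the pooled SD of a gene's ratios with siScram and siPCF11. By that measure only TSC22D3 moved, to 2.10 with siScram and 1.54 with siPCF11 when set against the genes within 5 Mb, whose own medians are below 0. For DEPP1 with siScram and for TSC22D2 fewer than 15 genes lay within 5 Mb, so the chromosome was used. Lowering the fold line from 1 to 0.5 raised the number of the 9 genes beyond it with siPCF11 from 2 to 4, by construction. The differences between the siRNAs, recomputed 18 times under other centrings, moved by less than 0.282. That of TSC22D1 changed sign, from -0.019 to 0.066 against genes within 5 Mb. The list medians, recomputed 28 times by chromosome or without the 9 genes, also moved by less than 0.282. As all 7 lay between -0.25 and 0.13, that measure is too wide to flag them. Without the 9 genes the clock median changed sign, from 0.043 to -0.0057 with siScram and from 0.036 to -0.041 with siPCF11. Counting an A within 2 bases of the RefSeq start raised the share of non-m6Am genes to 61.9% and that of m6Am genes to 71.6%; with any listed start, an alternative added after the data were seen, the shares were 49.5% and 57.8%. No paired analysis was possible because each group had 1 library. Depth is unknown for every ratio.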
